A study of Homo sapiens with 12 samples.

Results

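UCA1, CCDC144NL-AS1, NEAT1, MALAT1, GAS5 and SNHG1 are long noncoding RNAs (lncRNAs), RNAs of gene size that are not translated into a known protein. They were taken by gene symbol from the 58735 genes of the count table, of which 14994 have an lncRNA type in GENCODE release 29. These 6 were selected on values measured in the same libraries, so their differences between groups are described here, with no p-value. All 6 passed the filter on low counts in each comparison, CCDC144NL-AS1 in comparisons with set 2 (defined below) through the other group alone.

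The RNA came from MDA-MB-231, a long-established human line from a triple-negative breast cancer, with a mesenchymal look. The cells carried a guide RNA against UFL1 (sgUFL1), a guide against UFM1 (sgUFM1) or a control guide (sgCtrl), with separate controls for each targeting guide and 3 libraries in each of the 4 groups. UFM1, a small protein related to ubiquitin, is attached to target proteins, many of them at the endoplasmic reticulum, by the ligase UFL1. The series text calls the cells both knockdown and KO. How the guides were delivered, how many guides each gene had and whether the cells were clones or pools is not given in the sources used here, nor whether separate cultures gave the 3 libraries of each group. The spread behind the p-values below is that of these libraries and may be technical.

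The count and FPKM tables disagree on the names of 6 libraries. Matching each library by its values, 3 libraries called sgUFL1 among the counts are called controls for sgUFM1 among the FPKM values, and are named set 1 here. The reverse holds for set 2, called controls for sgUFM1 among the counts and sgUFL1 among the FPKM values. Libraries of sgUFM1 and of the controls for sgUFL1 have the same name in both, so sgUFM1 minus the controls for sgUFL1 is the comparison that means the same in both tables. By the counts' names, set 1 minus the controls for sgUFL1 and sgUFM1 minus set 2 are each a guide against its own controls. By the FPKM names, set 2 minus the controls for sgUFL1 and sgUFM1 minus set 1 are. Comparisons that share a set use the same 3 libraries of it, so they are not independent.

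Levels below are CPM, counts relative to the total of the library, scaled by TMM, a method that sets libraries on a common scale, unless FPKM (which also divides by gene length) is named. UFM1 RNA was lowest in sgUFM1, at 38.7 CPM ± 1.35 (SD, n = 3) against 65.5 ± 5.76 in the controls for sgUFL1 (edgeR adjusted p = 0.00255). UFL1 RNA was lowest in set 2, at 12.5 CPM ± 0.895, against 18.01 ± 1.27 in set 1, 24.8 ± 5.25 in the controls for sgUFL1 and 23.1 ± 2.32 in sgUFM1 (edgeR adjusted p = 0.00166 for set 2 and 0.13 for set 1 against those controls). Totals ran from 15342793 to 18033331 counts per library. The count-weighted mean GC content of the genes was 48.3% to 49.4% in the controls for sgUFL1 and 49.8% to 50.9% in the other 9 libraries. All 6 MDA-MB-231 markers, VIM, CD44, AXL, CAV1, ZEB1 and FN1, were present, summing to 2414 to 3242 CPM, while ESR1, PGR and CDH1, low in this line, summed to 0.731 to 1.80 CPM, with PGR at up to 1.16 CPM. The 6 leukocyte markers summed to 2.20 to 4.31 CPM, nearly all of it CD14 at 2.07 to 4.19 CPM, and CD3E was at 0. The 7 luminal markers summed to 90.5 to 103 CPM in sgUFM1 and 41.3 to 73.0 elsewhere. Of these, SPDEF had the widest range over all libraries, at 10.2 to 59.8 CPM, while ESR1 reached 0.744 CPM. The 8 fibroblast and endothelial markers summed to 44.6 to 49.8 CPM in sgUFM1 and 21.5 to 32.0 elsewhere. PECAM1 had the widest range there, at 5.75 to 29.4 CPM, while LUM, DCN and CDH5 reached 0.0620, 0.242 and 0.193 CPM. Whether cells of these kinds were present was not tested. The part of all these markers in the differences below was not tested either. In bulk RNA fewer cells of a kind and less RNA per cell cannot be told apart.

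These RNAs act in different parts of the cell. NEAT1 is the scaffold on which paraspeckles, nuclear bodies of RNA and RNA-binding proteins, are built, and MALAT1 is held in nuclear speckles, where splicing factors gather. GAS5 and SNHG1 are host genes: their introns carry small nucleolar RNAs (snoRNAs), which guide the modification of ribosomal RNA, while the spliced host RNA is exported, meets ribosomes and is degraded by nonsense-mediated decay. UCA1, first described in bladder carcinoma, is raised in many carcinomas, and CCDC144NL-AS1 is named for its position on the strand opposite CCDC144NL.

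The sequences that mark out these RNAs differ in kind. CCDC144NL-AS1, whose level differed most between sets, is shown by the start of a spliced GENCODE transcript (GENCODE 29, GRCh38), at chr17:20868550-20868669 on the plus strand.

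CCDC144NL-AS1-218: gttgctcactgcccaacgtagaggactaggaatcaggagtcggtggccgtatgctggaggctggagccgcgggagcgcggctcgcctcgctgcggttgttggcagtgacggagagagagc

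This stretch of 120 bases has 65.0% GC. MALAT1 and the long isoform of NEAT1 end without an ordinary poly(A) tail. Their 3′ ends are cut from the primary transcript and protected by a triple helix in which an A-rich tract lies between U-rich elements. In capitals below are both U-rich elements and the A-rich tract in MALAT1-202 (chr11:65506014-65506126, plus strand) and, at the 3′ end of NEAT1-202 (chr11:65445451-65445540, plus strand), the 1 U-rich element found by its letters and the A-rich last bases, both from GENCODE 29, with T written for U.

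MALAT1-202: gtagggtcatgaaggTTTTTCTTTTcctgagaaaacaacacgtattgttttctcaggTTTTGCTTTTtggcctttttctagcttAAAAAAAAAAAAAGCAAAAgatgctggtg

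NEAT1-202: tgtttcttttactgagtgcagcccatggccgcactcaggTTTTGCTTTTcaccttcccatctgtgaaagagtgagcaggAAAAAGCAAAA

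The second U-rich element of MALAT1 had the same letters as the element found in NEAT1-202, 51 bases before the annotated end of that isoform. GAS5 and SNHG1 are classed with RNAs that open with a pyrimidine tract (5′ TOP), which ties their translation, and that of ribosomal protein mRNAs, to mTOR signalling. The leading pyrimidines are in capitals, in GAS5-219 (GENCODE 29, chr1:173867960-173867989, minus strand) and in the bases after the RefSeq start of SNHG1 (GRCh38.p14, chr11:62855836-62855885, minus strand).

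GAS5-219: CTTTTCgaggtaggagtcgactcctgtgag

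SNHG1: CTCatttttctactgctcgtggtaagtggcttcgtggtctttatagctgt

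The annotated GAS5-219 opened with 6 pyrimidines and the SNHG1 start with 3. Of 35116 RefSeq start windows, 4.07% opened with C and 4 further pyrimidines at the annotated base. That annotated start was not measured in these cells.

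UCA1 (ENSG00000214049, chr19:15828206-15836326, plus strand, annotated lincRNA) was lower in sgUFM1 than in each other set. Its level was 60.8, 28.7 and 50.7 CPM in the 3 controls for sgUFL1. The values were 60.8, 25.3 and 25.6 in set 1, 38.2, 37.7 and 35.4 in set 2 and 5.02, 3.54 and 5.45 in sgUFM1. The highest sgUFM1 library thus lay below the lowest of the other 9, while those 9 overlapped across their sets. Here and below, the share of all genes whose libraries separate in this way is not given, so non-overlap is description only. The log2 difference of sgUFM1 was -3.32 ± 0.26 (SE, n = 3 against 3) from the controls for sgUFL1, a 10.01-fold lower level. It was -2.98 ± 0.13 from set 2 and -2.99 ± 0.34 from set 1, which correspond to 7.88-fold and 7.97-fold lower levels. Summed over 3 libraries, UCA1 had 223 counts in sgUFM1, with a 95% exact Poisson interval of 195 to 254 that covers counting error only, and 2294 counts in the controls for sgUFL1. The 6 lncRNAs were selected on these same libraries, so a rank is description only. Among the 1509 lncRNAs tested for sgUFM1 minus the controls for sgUFL1, UCA1 ranked 4 from the lowest log2 difference, and among all 15035 genes 12. Leaving out 1 library at a time moved this log2 difference between -3.58 and -3.09, and the limma fits on FPKM values gave -3.16 to -2.47.

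Set 1, set 2 and the controls for sgUFL1 could not be ordered by UCA1. Its log2 difference was -0.31 ± 0.36 for set 1 minus the controls, -0.35 ± 0.20 for set 2 minus the controls and 0.01 ± 0.28 for set 1 minus set 2. In set 1, library 1 held 2.40 times the level of the lowest library, and without it the difference from set 2 was -0.56. In set 2 the 3 libraries lay within 1.08-fold of each other.

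CCDC144NL-AS1 (ENSG00000233098, chr17:20868433-21002276, plus strand, annotated antisense) took a different order. It measured 8.66, 5.54 and 10.3 CPM in the controls for sgUFL1, then 7.34, 4.96 and 6.14 in set 1, 2.08, 0.965 and 2.73 in sgUFM1, and 0.383, 0.227 and 0.127 in set 2. Only the controls for sgUFL1 and set 1 overlapped, so set 2 lay lowest, sgUFM1 above it and those 2 sets above both. Set 2 rests on 13 counts in all, with a 95% exact Poisson interval of 6.92 to 22.2, against 92 in sgUFM1, 290 in set 1 and 400 in the controls for sgUFL1. Its log2 difference was -5.005 ± 0.39 for set 2 minus the controls for sgUFL1, 32.1-fold lower, and -2.08 ± 0.34 for sgUFM1 minus the same controls, 4.23-fold lower. Set 1 minus set 2 was 4.57 ± 0.36, or 23.8-fold, and sgUFM1 minus set 2 was 2.91 ± 0.50, or 7.54-fold. Of these, set 2 minus the controls for sgUFL1 is control against control by the counts' names. By the FPKM names it is sgUFL1 against its controls. CCDC144NL-AS1 was selected on these libraries and passed the filter in this comparison through the controls alone, so its rank is description only. It had the lowest log2 difference of the 1528 lncRNAs tested for set 2 minus the controls. On the log2(FPKM + pseudocount) scale, which understates low genes, that difference was -2.82 to -0.80. Across the other count fits it was -5.03 to -4.77.

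The reads of CCDC144NL-AS1 cannot be separated by strand from those of genes that overlap it, since the counting is not stated to use strand. CCDC144NL, on the opposite strand, had 0 counts in set 2, 26 in sgUFM1, 62 in set 1 and 68 in the controls for sgUFL1. With 3 counts over the set put in place of the count of 0, CCDC144NL was 23.9-fold higher in the controls for sgUFL1 than in set 2. It was 22.7-fold higher in set 1 and 9.41-fold higher in sgUFM1. These ratios are not lower bounds. The 95% exact Poisson interval, which covers counting error only, reached up to 0.0713 CPM in set 2. It began at 1.08 CPM in the controls for sgUFL1, 1.01 in set 1 and 0.356 in sgUFM1. The order of the sets was the same for both overlapping genes. USP22, a histone deubiquitinase gene that overlaps CCDC144NL-AS1, ran from 286.7 CPM in set 2 to 347.0 in set 1. RNASEH1P1, a pseudogene inside the span, had 22 counts in the controls for sgUFL1, 8 in set 1 and 0 in set 2 and in sgUFM1.

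**Figure D1:**
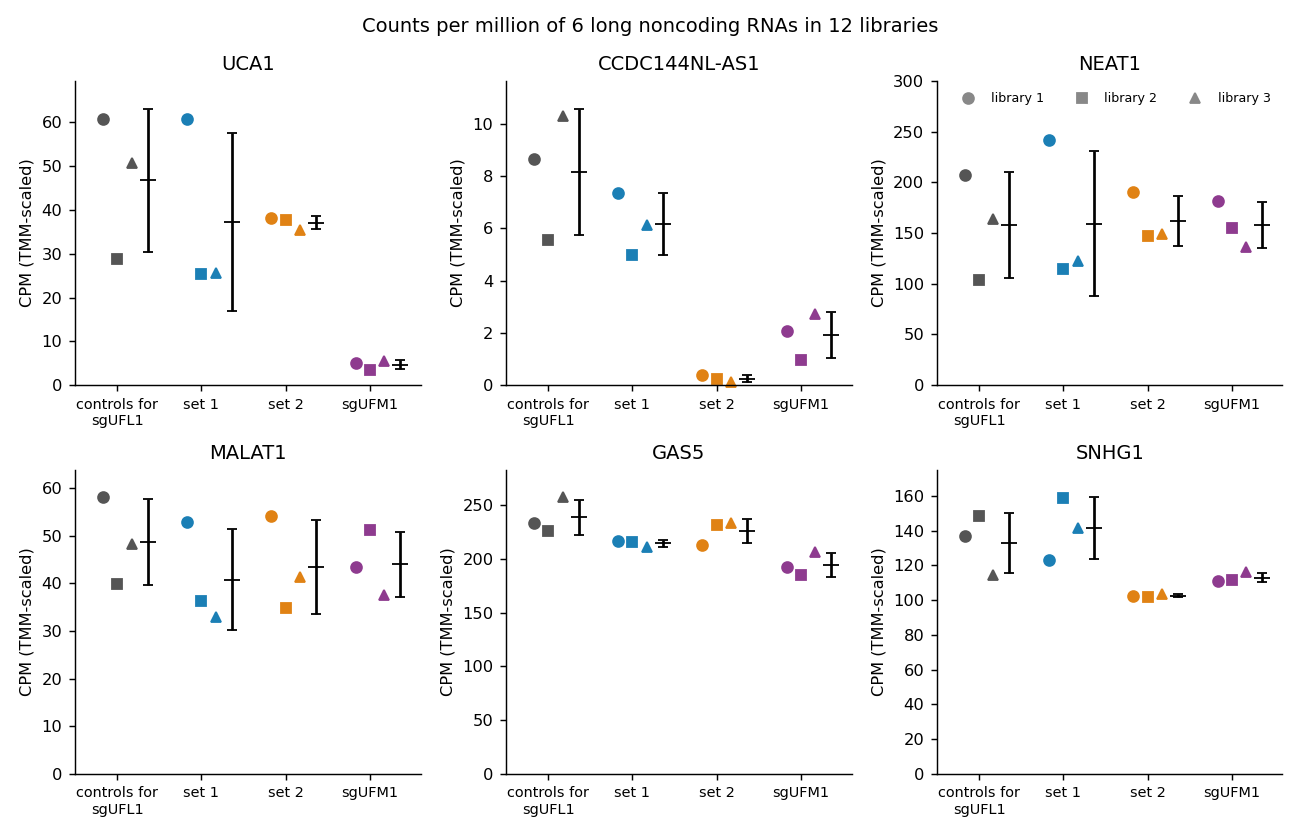
Level of each lncRNA in every library, in CPM scaled by TMM (vertical axes start at 0), by set. Circles, squares and triangles are libraries 1, 2 and 3, and the bar beside them is the mean ± SD (n = 3). UCA1 lies at 3.54 to 5.45 CPM in sgUFM1, below every other library, and CCDC144NL-AS1 lies at 0.127 to 0.383 CPM in set 2.

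NEAT1 (ENSG00000245532, chr11:65422774-65445540, plus strand, lincRNA) did not separate the sets. It measured 207.2, 103 and 163.7 CPM in the controls for sgUFL1. The values were 241.6, 114 and 122 in set 1, 190.4, 147 and 149 in set 2 and 181, 155 and 136 in sgUFM1. All 4 sets overlapped, and their means lay between 157 and 162 CPM. Its 6 log2 differences ran from -0.03 to 0.03 with SEs of 0.10 to 0.31. The range with offsets for GC content and length was -0.22 to 0.30. The annotated NEAT1 gene is a single stretch of 22767 bases that holds both the short, polyadenylated isoform and the long one. The counts are given per gene, so the isoforms cannot be told apart.

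MALAT1 (ENSG00000251562, chr11:65497688-65506516, plus strand, lincRNA) overlapped between all sets as well. It measured 58.0, 39.9 and 48.2 CPM in the controls for sgUFL1. The values were 52.8, 36.4 and 33.0 in set 1, 54.2, 34.8 and 41.4 in set 2 and 43.3, 51.1 and 37.5 in sgUFM1. The log2 difference was -0.15 ± 0.15 for sgUFM1 minus the controls for sgUFL1, -0.24 ± 0.19 for set 1 and -0.18 ± 0.17 for set 2 minus the same controls. These 3 took the opposite sign, at 0.05, 0.08 and 0.32, with offsets for GC content and length. MALAT1 has 39.6% GC, the lowest of the 6. At 158 against 48.7 CPM in the controls for sgUFL1, NEAT1 drew more reads than MALAT1, but per length the levels were nearer, at 6.87 FPKM ± 2.24 and 5.46 FPKM ± 0.991. How RNA was selected for the libraries is not given in the sources used here beyond total RNA. The non-polyadenylated RNAs RN7SK, RMRP, RPPH1, TERC and RN7SL1 were listed at 0 in every library.

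GAS5 (ENSG00000234741, chr1:173863900-173868882, minus strand, processed transcript) was the most abundant of the 6 per length in every library. It measured 233.3, 226.3 and 257.5 CPM in the controls for sgUFL1. The values were 217, 216 and 211 in set 1, 213, 232 and 233.3 in set 2 and 193, 185 and 207 in sgUFM1. The 3 sgUFM1 libraries lay below all 9 others, by a narrow margin: the highest reached 206.6 CPM and the lowest of the rest 211.3. Its log2 difference was -0.30 ± 0.10 for sgUFM1 minus the controls for sgUFL1, -0.21 ± 0.07 minus set 2 and -0.14 ± 0.07 minus set 1. With offsets for GC content and length these were -0.14, -0.32 and -0.20. Set 1 and set 2 minus the controls for sgUFL1, at -0.14 ± 0.10 and -0.10 ± 0.11, turned to 0.07 and 0.19 with the offsets. In size this is a difference of 1.23-fold at most, where UCA1 differed 10.01-fold.

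SNHG1 (ENSG00000255717, chr11:62851988-62855914, minus strand, processed transcript), the other snoRNA host, was lowest in set 2. It measured 137, 148 and 114 CPM in the controls for sgUFL1. The values were 123.3, 159 and 142 in set 1, 102.3, 102.1 and 103 in set 2 and 111, 112 and 116 in sgUFM1. Set 2 lay below all other libraries and varied by 1.01-fold, while sgUFM1 overlapped with the controls for sgUFL1 and not with set 1. The log2 difference was -0.39 ± 0.12 for set 2 minus the controls for sgUFL1, 0.46 ± 0.09 for set 1 minus set 2, -0.32 ± 0.09 for sgUFM1 minus set 1 and 0.15 ± 0.07 for sgUFM1 minus set 2. Under the same offsets the difference of set 2 from the controls shrank to -0.16. So the pair of hosts did not share an order: GAS5 was lowest in sgUFM1 and SNHG1 in set 2.

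Per length, the order of the RNAs was the same in 3 sets and different in sgUFM1. In the controls for sgUFL1 the mean FPKM was 65.2 ± 4.44 for GAS5, 35.1 ± 4.62 for SNHG1, 11.1 ± 3.86 for UCA1, 6.87 ± 2.24 for NEAT1, 5.46 ± 0.991 for MALAT1 and 0.791 ± 0.232 for CCDC144NL-AS1. UCA1 lay above NEAT1 in all 3 libraries of that set, of set 1 and of set 2, although the ranges of UCA1 and NEAT1 overlapped in the controls for sgUFL1 and in set 1. In sgUFM1, UCA1 stood in the fifth place, at 1.12 FPKM ± 0.241, below MALAT1 at 4.94 FPKM ± 0.766. CCDC144NL-AS1 was last in every set, at 0.0238 FPKM ± 0.0125 in set 2.

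**Figure D2:**
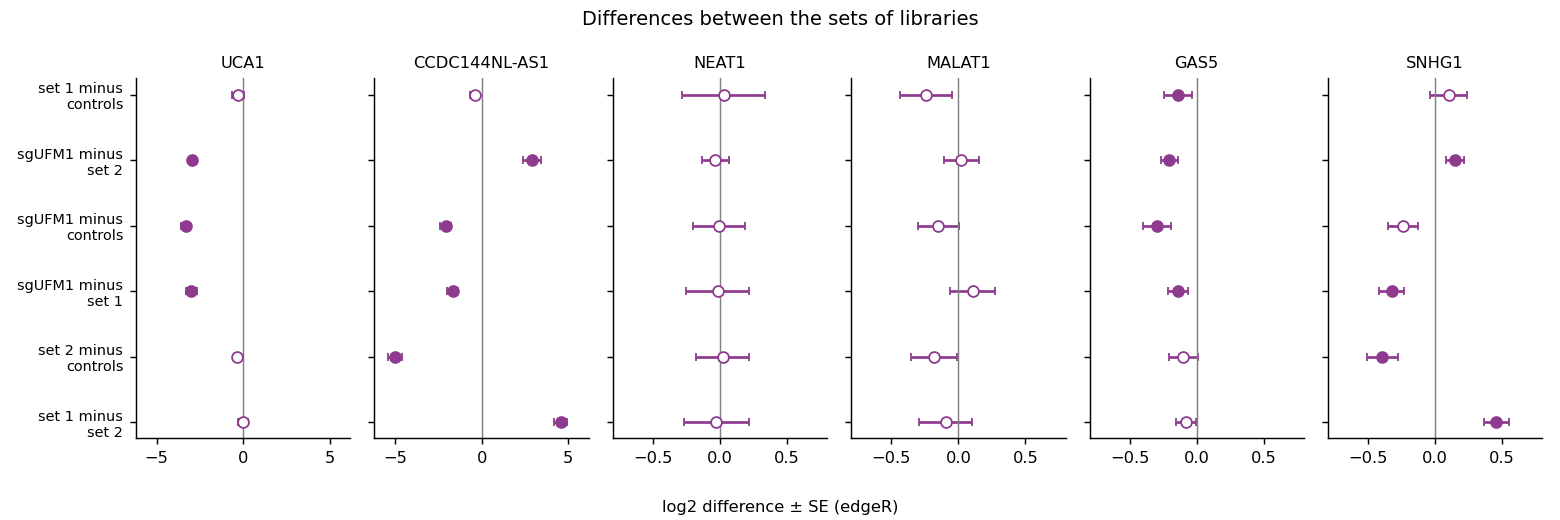
Log2 difference ± SE of each lncRNA (edgeR, 3 libraries against 3) in the 6 comparisons of the 4 sets, where "controls" are the controls for sgUFL1. Filled circles mark comparisons whose libraries do not overlap, and the share of all genes for which this holds is not given. The horizontal scale is wider for UCA1 and CCDC144NL-AS1, which reach -3.32 and -5.005, than for the other 4, which stay within -0.39 and 0.46.

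These counts describe the 6 lncRNAs and do not test them. How many of them passed the edgeR threshold (Benjamini-Hochberg adjusted p under 0.05 over all genes) depended on the comparison, as did the share of all genes that passed. In sgUFM1 relative to the controls for sgUFL1, 2 were lower, UCA1 and CCDC144NL-AS1, where 4.43% of all genes tested were lower and 5.57% higher. In sgUFM1 relative to set 2, UCA1 and GAS5 were lower and CCDC144NL-AS1 higher, where 18.5% of all genes were lower and 19.3% higher. In sgUFM1 relative to set 1, UCA1, CCDC144NL-AS1 and SNHG1 were lower, where 5.15% of all genes were lower and 4.57% higher. In set 2 relative to the controls for sgUFL1, CCDC144NL-AS1 and SNHG1 were lower, where 18.4% of all genes were lower and 17.4% higher. In set 1 relative to set 2, the same 2 lncRNAs were higher, where 0.705% of all genes were higher and 1.49% lower. In that comparison a fit with the replicate number as a block passed 832 genes against 330, though the titles state no pairing. In set 1 relative to the controls for sgUFL1, edgeR passed 0 of the 6 lncRNAs, as did DESeq2 and an unadjusted p under 0.05, where 1.08% of all genes were higher and 0.02% lower. The same comparisons were used to choose the 6, and CCDC144NL-AS1 entered those with set 2 only through the group where it is higher, so nothing is read from these counts about them.

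Of the 1509 lncRNAs tested for sgUFM1 minus the controls for sgUFL1, edgeR called 39 higher (2.58%) and 35 lower (2.32%), and for sgUFM1 minus set 2, 110 of 1493 were higher and 104 lower. Whether these shares differ from those of all genes was not tested.

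Many snoRNA hosts code for proteins, and others, like GAS5 and SNHG1, are lncRNAs, of which a list of 27 was fixed. C6orf48, on this list, does not have an lncRNA type in the annotation of the count table. In sgUFM1 against set 2, 13 of the 23 of these host lncRNAs tested were lower and 1 higher, with a median log2 difference of -0.25 against 0.01 over all genes, whose background was 18.5% lower and 19.3% higher. C6orf48 fell by 0.91 ± 0.11 on the log2 scale (edgeR's quasi-likelihood test, adjusted p = 4.63e-06), from 75.9 to 40.1 CPM. ZFAS1 fell by 0.76 ± 0.08 (adjusted p = 8.83e-07 in the same test), from 59.5 to 35.0 CPM. SNHG16 rose by 0.30 ± 0.10 and LRRC75A-AS1 fell by 0.20 ± 0.07, with adjusted p of 0.0196 and 0.0311 in edgeR, calls lost in 4 and 6 of 12 alternatives. GAS5 lay near this list's median, at -0.21, and SNHG1, at 0.15, on the other side of 0. Leaving out single libraries gave 9 to 12 lower hosts, and the offsets for GC content and length 10 lower and 0 higher.

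In set 2 against the controls for sgUFL1, 9 of 25 host lncRNAs were higher and 1 lower, with a median of 0.25 against -0.03 over all genes and a background of 17.4% higher and 18.4% lower. C6orf48 rose by 1.48 ± 0.16 (edgeR adjusted p = 0.000281), SNHG5 by 0.39 ± 0.13 (0.0298) and SNHG21 by 1.03 ± 0.37 (0.0464), and SNHG3 was lower by a log2 difference of -0.31 ± 0.11 (adjusted p = 0.0474). The last 3 calls were lost in 3, 8 and 10 of 12 alternatives. SNHG1, at -0.39, lay on the side of SNHG3. This comparison and sgUFM1 against set 2 use the same 3 libraries of set 2. Opposite signs in the 2 are therefore not separate findings, here or in the lists and neighbours below. With the offsets 5 hosts were higher and 0 lower. Without library 1 of the controls for sgUFL1, library 2 of set 2 or library 3 of set 2, 5 were higher and 0 lower each. In sgUFM1 against set 1, 4 of 24 were lower (16.7%, against 5.15% of all genes) and 0 higher (against 4.57%). The lower hosts were SNHG7, SNHG17, ZFAS1 and SNHG19, by log2 differences of -0.40, -0.35, -0.40 and -0.77. All 4 calls were lost without set 1 library 2 or 3 or sgUFM1 library 2 or 3, where the count was 0, and without set 1 library 1 it was 10.

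In sgUFM1 against the controls for sgUFL1, edgeR passed 0 of 24 host lncRNAs in either direction, where an unadjusted p under 0.05 gave 3 higher and 1 lower and DESeq2 1 of each. Their median was 0.06. In set 1 against set 2 only EPB41L4A-AS1 of 25 passed, lower by -0.61 ± 0.11 (edgeR adjusted p = 0.0253, lost in 4 of 12 alternatives), and 4 with the replicate block. In set 1 against the controls for sgUFL1 only C6orf48 of 25 passed, at 1.14 ± 0.19 (edgeR adjusted p = 0.0487), a call lost in 7 of 12 alternatives, with 3 higher in DESeq2 and 7 at an unadjusted p under 0.05. The snoRNAs themselves were almost without reads. Of the 10 of GAS5, 2 were found in the count table, with 2 and 0 counts over the 12 libraries, and of the 8 of SNHG1, 7 were found, with 0 counts for 6 and 1 count for 1.

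**Figure D3:**
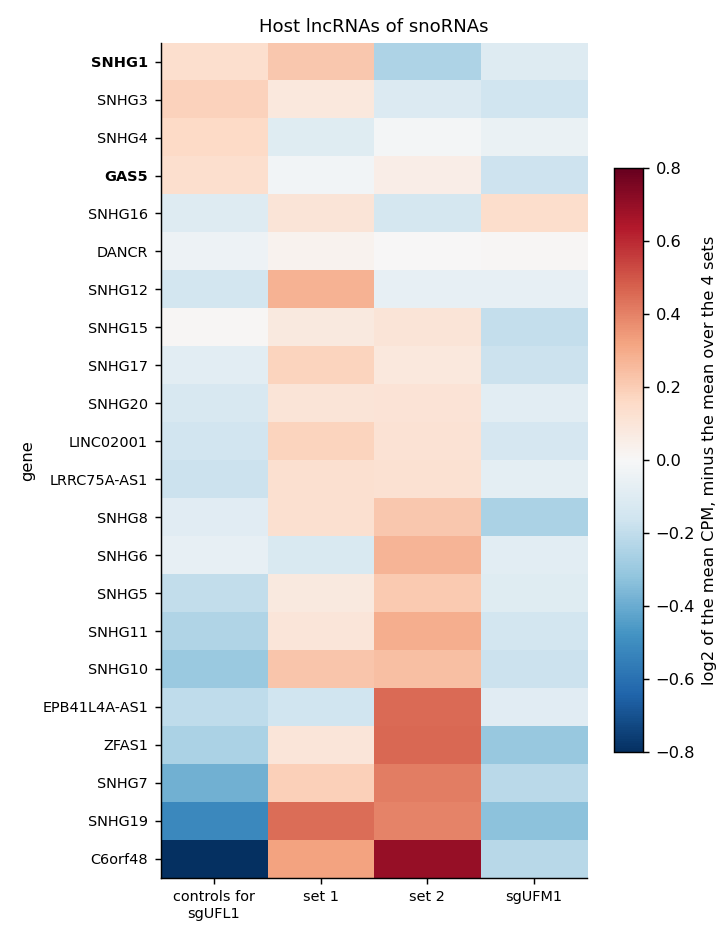
Log2 of the mean CPM in each set minus the mean over the 4 sets (colour) for GAS5 and SNHG1 (bold) and the 20 other snoRNA host lncRNAs with at least 5 CPM in 1 set, ordered by set 2 minus the controls for sgUFL1. SNHG1 stands at the top and C6orf48, with 26.9 CPM in those controls and 75.9 in set 2, at the bottom. C6orf48 does not have an lncRNA type in the annotation of the count table.

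Genes classed with the 5′ TOP start, other than ribosomal proteins, were a list of which 19 were tested. Most but not all are translation genes, and NAP1L1 is not. With set 2 as the reference for sgUFM1, 7 of 19 were lower (36.8%, against 18.5% of all genes) and 2 higher (10.5% against 19.3%), with a median of -0.06. EEF2, the translocation factor, fell by 0.36 ± 0.06 (edgeR adjusted p = 8.31e-05) and EEF1D by 0.38 ± 0.07 (0.000223). EIF4A2 and NAP1L1 were higher, by 0.16 each, with calls lost in 10 and 8 of 12 alternatives and the opposite sign, -0.08 and -0.20, with offsets for GC content and length. The offsets gave 13 lower and 0 higher, and without library 2 or 3 of set 2 or library 2 of sgUFM1 5, 4 and 3 were lower and 0 higher. With the controls for sgUFL1 as the reference for set 2, 2 of 19 were higher, EEF2 by 0.51 ± 0.11 and EEF1D by 0.44 ± 0.12, and 4 lower, among them NAP1L1 by -0.69 ± 0.12 and EIF4A2 by -0.37 ± 0.11 (edgeR adjusted p = 0.00392, 0.0143, 0.00202 and 0.0196), where 17.4% of all genes were higher and 18.4% lower. All 4 of these calls ended with the offsets, at 0.08, -0.11, -0.11 and 0.08, so that EEF1D and EIF4A2 changed sign. The 2 genes then higher were others and 0 were lower. Among the remaining fits 1 was lower without library 1, 2 or 3 of set 2, 2 without library 3 of the controls, and 5 were higher without library 2 of those controls. With the controls for sgUFL1 as the reference for sgUFM1 only NAP1L1 of 19 passed, at -0.52 ± 0.12 (edgeR adjusted p = 0.0236, lost in 4 of 12 alternatives, the offsets among them).

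Nonsense-mediated decay is the pathway that degrades spliced GAS5, and 19 of its factors were tested. For sgUFM1 minus set 2, 5 of 19 were higher (26.3%, against 19.3% of all genes) and 2 lower (10.5% against 18.5%). The helicase UPF1 fell by 0.34 ± 0.07 (edgeR adjusted p = 0.00062) and the exon junction helicase EIF4A3 by 0.39 ± 0.07 (0.000122), while UPF2 rose by 0.64 ± 0.12 (0.000284) and the kinase SMG1 by 0.56 ± 0.13 (0.00149). For set 2 minus the controls for sgUFL1, 4 of 19 were lower (21.1%, near the 18.4% of all genes) and 1 higher. UPF2 was lower by a log2 difference of -0.84 ± 0.16 (edgeR adjusted p = 0.00251) and SMG1 by -0.69 ± 0.18 (0.00931), and UPF1 was higher by 0.37 ± 0.11 (0.0199). With offsets for GC content and length 3 were lower and 0 higher, the calls of SMG1 (-0.28) and UPF1 ended and UPF1 changed sign, to -0.05. Without library 2 or 3 of set 2, 1 was lower and 0 higher. With set 1 as the reference for sgUFM1, 4 of 19 were lower (21.1%, against 5.15% of all genes) and 0 higher (against 4.57%). The lower factors were UPF1, EIF4A3, SMG5 and DHX34, at log2 differences of -0.44, -0.37, -0.28 and -0.40 (edgeR adjusted p = 0.0115, 0.0105, 0.025 and 0.0131). The lower count was 0 without library 2 or 3 of sgUFM1, 1 without library 3 of set 1 and 8 without library 1 of set 1. It was 2 with the offsets, which ended the calls of SMG5 and DHX34. For sgUFM1 minus the controls for sgUFL1 edgeR passed 0 of 19, with 2 lower at an unadjusted p under 0.05 and 2 lower in DESeq2.

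Proteins of the bodies built on NEAT1 and around MALAT1 were described in the same way. Of 20 paraspeckle proteins, 4 were lower and 3 higher for sgUFM1 minus set 2 (of all genes 18.5% and 19.3%), with a median of 0.01. PSPC1, a core paraspeckle protein, fell by 0.37 ± 0.07 (edgeR adjusted p = 0.000601), whereas HNRNPH3 and FAM98A were higher by 0.18 and 0.22, with calls lost in 9 and 6 of 12 alternatives and values of -0.04 and 0.09 with the offsets. Without library 2 or 3 of set 2 or of sgUFM1, 1 or 2 were lower and 0 or 1 higher. In set 2 relative to the controls for sgUFL1, 3 were higher and 3 lower (of all genes 17.4% and 18.4%), including SMARCA4 at 0.44, FAM98A at -0.40 and NUDT21 at -0.35 (edgeR adjusted p = 0.0124, 0.0147 and 0.0247). The offsets ended these 3 calls, at 0.07, -0.11 and 0.16, and left 1 higher and 0 lower. Leaving out library 1, 2 or 3 of set 2 left 0 or 1 in each direction, while without library 2 of the controls 6 were higher. In sgUFM1 relative to the controls for sgUFL1 edgeR passed 0 of 20, as did DESeq2, with 1 in each direction at an unadjusted p under 0.05.

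Of 28 nuclear speckle and SR proteins, splicing regulators of the compartment that holds MALAT1, 12 were higher (42.9%, against 19.3% of all genes) and 1 lower (3.57% against 18.5%) for sgUFM1 minus set 2. SRSF1 rose by 0.42 ± 0.09 (edgeR adjusted p = 0.000696) and PNISR by 0.52 ± 0.08 (4.33e-05), and SRSF9 fell by 0.55 ± 0.08 (1.73e-05). With offsets for GC content and length the count turned to 6 higher and 8 lower, and the call of PNISR ended, at 0.16. In set 2 against the controls for sgUFL1, 14 of 28 were lower (against 18.4% of all genes) and 3 higher (10.7% against 17.4%), with a median of -0.29, and with offsets 4 lower and 1 higher. SRSF1 was lower there by -0.67 ± 0.12 and SRSF11 by -0.64 ± 0.13, and SRSF9 was higher by 0.64 ± 0.11 (edgeR adjusted p = 0.00241, 0.00401 and 0.00194), of which the call of SRSF11 ended with the offsets, at -0.18. Without library 2 or library 3 of set 2 the lower count was 7 and 8. In sgUFM1 against the controls for sgUFL1, 1 of 28 passed, SRSF11 at -0.46 ± 0.13 (edgeR adjusted p = 0.0368). In this comparison leaving out library 2 of the controls for sgUFL1 raised the counts of each list, here to 2 higher and 3 lower, and leaving out any other library, or using the offsets, gave 0. With set 2 as the reference for set 1, edgeR passed 0 of 28, with 10 higher at an unadjusted p under 0.05, 1 higher in DESeq2, 4 higher with the replicate block and 11 higher without library 1 of set 1.

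Transcription factors described at the UCA1 promoter in other cells were a list of 10. In sgUFM1 relative to set 2, 3 were higher and 2 lower, where 19.3% of all genes were higher and 18.5% lower. HIF1A rose by 0.44 ± 0.08 (edgeR adjusted p = 0.000124), YAP1 rose by 0.34 ± 0.06 (0.000356) and ETS2 fell by 0.30 ± 0.09 (0.0136, lost in 3 of 12 alternatives). TEAD4 was lower, at -0.33 ± 0.08 (edgeR adjusted p = 0.00313), but stood at 0.02 with the offsets, which ended its call, and HIF1A at 0.18. For sgUFM1 minus set 1, 2 of 10 were higher and 1 lower, where 4.57% of all genes were higher and 5.15% lower. HIF1A was at 0.35, SMAD3 at 0.26 and TEAD4 at -0.37 (edgeR adjusted p = 0.0263, 0.0497 and 0.02), calls lost in 7, 8 and 5 of 12 alternatives and all 3 lost without library 2 or 3 of sgUFM1 or library 2 of set 1. With the controls for sgUFL1 as the reference for sgUFM1, where UCA1 was 10.01-fold lower, edgeR passed 0 of 10, with 1 higher and 3 lower at an unadjusted p under 0.05 and 1 of each in DESeq2. With the controls for sgUFL1 as the reference for set 2, where UCA1 overlapped, 5 of 10 were lower and 1 higher, against 18.4% and 17.4% of all genes, including TEAD1 at -0.56 ± 0.15 and HIF1A at -0.53 ± 0.15 (edgeR adjusted p = 0.0129 and 0.0142), both calls that ended with the offsets. With offsets for GC content and length 1 was lower and 0 higher, and without library 2 or 3 of set 2 0 passed in either direction.

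Of 49 other well-known lncRNAs 47 were matched by name and 24 or 25 tested. In sgUFM1 against set 2, 7 were higher and 2 lower, where 19.3% and 18.5% of all genes and 7.37% and 6.97% of all lncRNAs tested were. PVT1, a transcript next to MYC, fell by 1.02 ± 0.13 (edgeR adjusted p = 4.15e-06), from 15.7 to 7.70 CPM, and AFAP1-AS1 rose by 0.59 ± 0.08 (9.86e-06), from 53.0 to 79.5 CPM. Without library 2 or 3 of set 2 or of sgUFM1, 4 were higher and 1 lower. For set 2 minus the controls for sgUFL1, 3 were higher and 6 lower, where 17.4% and 18.4% of all genes and 7% and 5.69% of all lncRNAs tested were. PVT1 rose by 0.72 ± 0.17 (edgeR adjusted p = 0.0064) and LINC00963 by 0.66 ± 0.17 (0.00968), and MIR17HG, the host of the miR-17-92 cluster, was lower by -1.04 ± 0.26 (0.00949), a call lost with the offsets, at -0.52. The offsets gave 2 higher and 1 lower. Without library 2 of set 2, 2 were higher and 1 lower, and without library 3, 1 and 2. In sgUFM1 relative to set 1, 2 of 24 were higher and 1 lower, where 4.57% and 5.15% of all genes and 1.83% and 1.83% of all lncRNAs tested were. CYTOR was lower by -0.45 ± 0.09, and LUCAT1 and OIP5-AS1 higher by 0.82 ± 0.20 and 0.41 ± 0.09 (edgeR adjusted p = 0.0119, 0.0269 and 0.0202), with 0 of this list passing without library 2 or 3 of sgUFM1. For sgUFM1 minus the controls for sgUFL1 edgeR passed 0 of 24, as did DESeq2, with 3 higher and 2 lower at an unadjusted p under 0.05.

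Neighbours on the chromosome were examined within 200 kb of each lncRNA. Around UCA1 there were 26 annotated genes, of which 15 had 0 counts in every library and 1 passed the filter, so the neighbourhood gives little to set beside UCA1. LINC01764, which overlaps UCA1 on the opposite strand, had 0 counts in sgUFM1 and 2 in set 1, where set 2 had 11 and the controls for sgUFL1 12. Around GAS5, RC3H1, which encodes the RNA-binding protein roquin, fell in set 2 against the controls for sgUFL1 by 0.68 ± 0.14 (edgeR adjusted p = 0.00364) and rose in sgUFM1 against set 2 by 0.63 ± 0.11 (0.000102), where GAS5 differed by -0.10 and -0.21. The first of these calls was lost with the offsets. ZBTB37, which shares the locus on the opposite strand, passed in 0 of the 6 edgeR comparisons, at 25.8 CPM in set 2 and 32.9 in sgUFM1. Around SNHG1, WDR74 rose in set 2 against the controls for sgUFL1 by 0.66 ± 0.17 (0.0109, lost with the offsets) and fell in sgUFM1 against set 2 by 0.48 ± 0.09 (0.000258). SLC3A2, an amino acid transporter subunit whose gene lies 188 bases from SNHG1, was higher by 0.39 ± 0.13 in set 2 minus the controls (edgeR adjusted p = 0.0346, lost with the offsets), where SNHG1 was lower by the same log2 amount.

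NEAT1 and MALAT1 are themselves neighbours on chromosome 11. Of the 16 genes tested within 200 kb of NEAT1, 5 were higher and 0 lower for set 2 minus the controls for sgUFL1, where 17.4% of all genes were higher and 18.4% lower, among them LTBP3 at 0.85 ± 0.16 and EHBP1L1 at 0.73 ± 0.12 (edgeR adjusted p = 0.00259 and 0.00131), while NEAT1 differed by 0.02 ± 0.20. These calls ended with offsets for GC content and length. LTBP3, which binds latent TGF-beta, was higher also for sgUFM1 minus the controls for sgUFL1, by 1.03 ± 0.18 (edgeR adjusted p = 0.00555), and kept that call with the offsets.

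Several of the lncRNAs varied together within the sgUFL1 controls and within set 1. In the controls UCA1, NEAT1 and MALAT1 were highest in library 1 and lowest in library 2, and in set 1 all 3, and CCDC144NL-AS1, were highest in library 1. In library 2 of sgUFM1, by contrast, UCA1 was lowest, at -0.37 from its set mean on the log2 scale, and MALAT1 highest, at 0.23. In set 1 library 1 UCA1 deviated from its set mean by 0.84, NEAT1 by 0.69 and MALAT1 by 0.40 on the log2 scale, and SNHG1 by -0.19. UCA1 and NEAT1 lay on the same side of their set means in 10 of 12 libraries, as did CCDC144NL-AS1 with each of these and NEAT1 with MALAT1. UCA1 and MALAT1 did so in 8 of 12, and NEAT1 and SNHG1 in 3 of 12. Each deviation is taken from the mean of its own set, so the 12 are not independent. The same count for pairs of other genes is not given here, so these counts are description only. The highest-to-lowest ratio of NEAT1 was 2.12 in set 1 and 2.01 in the controls for sgUFL1, but 1.30 in set 2 and 1.33 in sgUFM1, so its spread between libraries of a set was larger than any difference between set means. GAS5 varied by 1.03-fold to 1.14-fold in each set. The share of all counts in lncRNA genes moved with these libraries: it was 0.907% in set 1 library 1 against 0.754% and 0.750% in the other two, and 0.738% in library 2 of the controls for sgUFL1 against 0.899% and 0.862%. Library 1 of set 1 also had 23529 genes with counts, against 22327 and 22105. The part of these differences in the levels of the 3 RNAs was not tested.

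**Figure D4:**
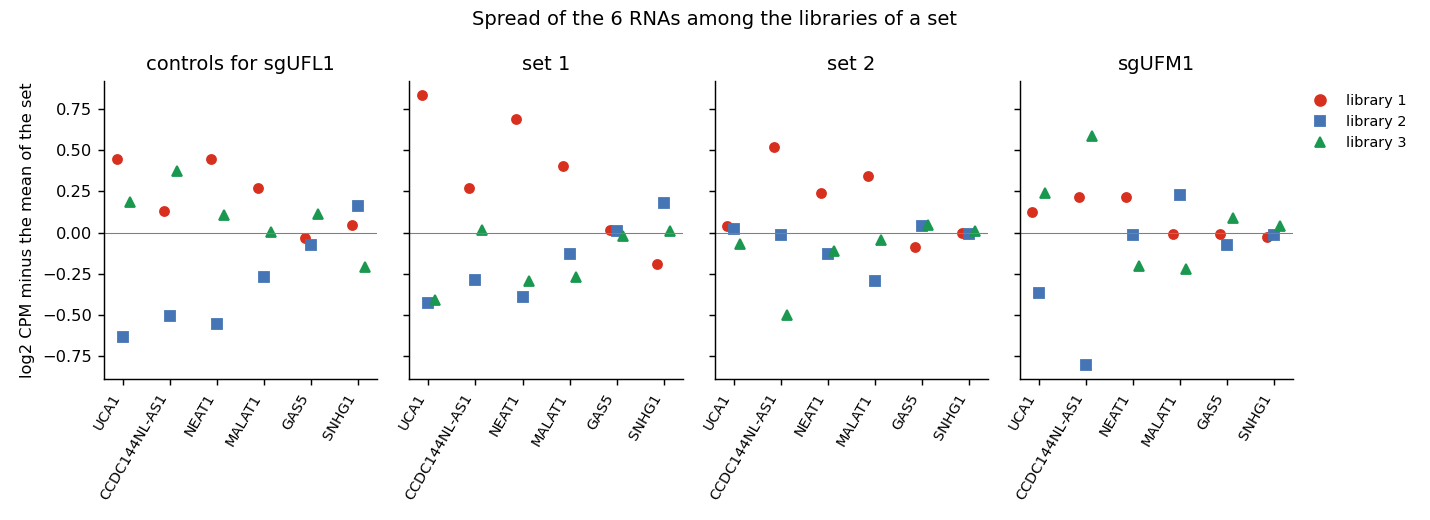
Log2 CPM of each lncRNA in each library minus the mean of its set, for the 4 sets, with circles, squares and triangles for libraries 1, 2 and 3. In set 1, library 1 lies at 0.84 for UCA1 and 0.69 for NEAT1, while GAS5 stays within -0.09 and 0.11 in all sets.

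The genes whose pattern over the 12 libraries was most like that of each lncRNA were found by the smallest root-mean-square (RMS) difference of centred log2 CPM among 11047 genes of at least 5 CPM. For UCA1 this was RELN, which encodes the secreted glycoprotein reelin, with an RMS difference of 0.284 where UCA1 itself had an SD of 1.44. RELN stood at 26.1 CPM ± 10.9 in the controls for sgUFL1, against 19.1 ± 8.70 in set 1, 26.7 ± 1.84 in set 2 and 3.34 ± 0.339 in sgUFM1. The chemokine receptor gene CXCR4, at 17.1 CPM in those controls and 3.72 in sgUFM1, and the keratin-associated KRTAP2-3 followed, with RMS differences of 0.532 and 0.547. None of the 3 lies on the chromosome of UCA1.

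CCDC144NL-AS1 had no match as close, and its pattern rests in set 2 on 2 to 7 counts per library. IGFN1 came nearest, with an RMS difference of 0.871 against an SD of 1.91, and stood at 54.2 CPM ± 29.9 in the controls for sgUFL1, against 78.0 ± 59.6 in set 1, 6.70 ± 1.65 in set 2 and 16.0 ± 7.13 in sgUFM1. The transcription factor gene TBX3 followed at 0.980. For NEAT1 the nearest were PABPC1L, RIMBP2 and GABBR1, with RMS differences of 0.0834 to 0.136, and for MALAT1 FBXO43, PPP1R12B and SLITRK5, at 0.116 to 0.118. NEAT1 and MALAT1 themselves had SDs of only 0.361 and 0.273. PABPC1L repeated the library spread of NEAT1, with 41.5 CPM ± 13.2 in the controls for sgUFL1 and 41.0 ± 20.2 in set 1 but 39.5 ± 2.64 in set 2. For GAS5 the nearest were SETD3, ACAT1 and SDHB, at 0.0462 to 0.0537, where GAS5 itself had an SD of only 0.13. For SNHG1 the nearest were NOP56, a core protein of the snoRNA particles that SNHG1's introns feed, HNRNPA2B1 and HNRNPDL, at 0.0864 to 0.106. SNHG1 itself had an SD of only 0.22. NOP56 stood at 491 CPM ± 47.1 in the controls for sgUFL1, against 501 ± 27.6 in set 1, 415 ± 11.8 in set 2 and 421 ± 11.8 in sgUFM1. These are likenesses found by search among many genes, with no test.

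**Figure D5:**
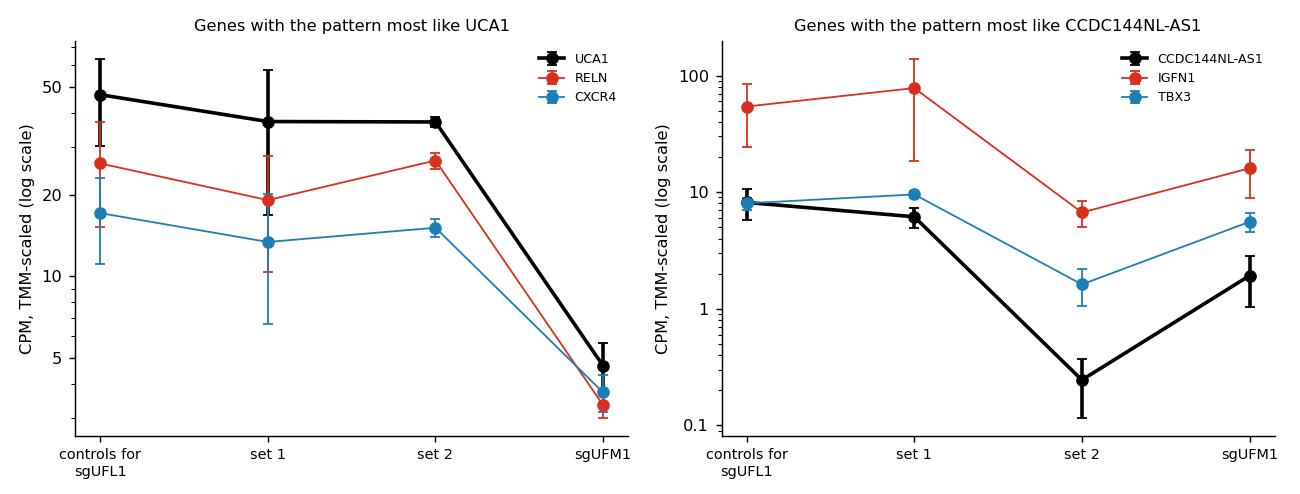
Mean CPM ± SD (n = 3, TMM-scaled, log axis) in the 4 sets for UCA1 and CCDC144NL-AS1 (black) and the 2 genes with the most similar pattern over 12 libraries. RELN, like UCA1, is lowest in sgUFM1, at 3.34 CPM, and IGFN1 is lowest in set 2, at 6.70 CPM, as CCDC144NL-AS1 is.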

How the data were processed

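Total RNA of 12 libraries of MDA-MB-231 cells was sequenced. The deposited counts are whole numbers per gene, and the FPKM values were computed by the authors. The submitters' processing notes list featureCounts 2.0.0, STAR 2.7.7a, fastp 0.20.1 and the GRCh38 build. The sources used here do not state settings or strand. Groups came from sample titles. Each FPKM column was matched to counts by proportionality (11031 genes), with an SD of log2 ratios of at most 2.6e-10 for the match and at least 0.151 for the next best column. The members and lists were chosen with earlier results of these data known.

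Counts were tested with edgeR 4.0.16 in R 4.3.3 (quasi-likelihood, filterByExpr, TMM, Benjamini-Hochberg at 0.05), 6 libraries per fit. Coordinates in the count table equal GENCODE 29. Lists are other snoRNA host lncRNAs, snoRNAs of GAS5 and of SNHG1, 5′ TOP genes other than ribosomal proteins, decay factors, paraspeckle proteins, nuclear speckle and SR proteins, other lncRNAs and UCA1 promoter factors. Named are list genes called where up to 4 were, otherwise the 2 highest and 2 lowest of at least 1 CPM, neighbours within 200 kb that were called or overlap, of which those near NEAT1, MALAT1 and SNHG1 are given in part, and 3 genes per lncRNA by pattern. A few items that this rule names are not reported here. Alternatives were RLE scaling, no filter, 1 fit over 12 libraries, a replicate block, lowess offsets on GC content and length (span 0.3), DESeq2 1.42.0, limma 3.58.1 on log2(FPKM + 0.5), with pseudocounts 0.1 and 1 and without a filter, and each library left out. The titles number the libraries and state no pairing. Only between set 1 and set 2 were the deviations of same-numbered libraries positively correlated for all 3 numbers, and weakly (r = 0.312, 0.166 and 0.143). Between the controls for sgUFL1 and set 1 the values were 0.551, 0.628 and -0.445. Chi-square values per gene between replicates were 2.41 to 34.9, and none was counted as a repeated deposit. Only the main edgeR fit of sgUFM1 minus the controls for sgUFL1 was tried on simulated data.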

Additional observations from a re-analysis of the deposited data

How the results depend on the processing

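Of 567 alternative values of the 36 differences of the lncRNAs, 537 moved by less than their spread and 30 by more. UCA1 kept its sign in 88 of 96, CCDC144NL-AS1 in 87 of 87, SNHG1 in 96 of 96, GAS5 in 94 of 96, MALAT1 in 84 of 96 and NEAT1 in 65 of 96. Counts of all genes called depended more on settings. For set 1 minus the controls for sgUFL1, 165 genes were called, and 0 with RLE scaling, offsets, and limma on FPKM with each pseudocount and without a filter, but 1921 with no filter on counts, 3463 with 1 fit over 12 libraries and 1697 in DESeq2 (0 to 2419 without 1 library). For sgUFM1 minus set 2, 5697 became 3023 with 1 fit over 12 libraries and 2794 in limma without a filter (4163 to 6525). For sgUFM1 minus the controls for sgUFL1, 1503 became 2315 with no filter, 2565 with 1 fit over 12 libraries, and 442, 400, 436 and 13 in limma with pseudocounts 0.5, 0.1 and 1 and without a filter (275 to 4196). For sgUFM1 minus set 1, 1456 became 901 with 1 fit over 12 libraries and 797, 768, 804 and 193 in the same limma fits (118 to 4080). For set 2 minus the controls, 5438 became 1070 with offsets and 1787 in limma without a filter (2486 to 6985). For set 1 minus set 2, 330 became 1116 with no filter, 685 in DESeq2, and 35, 28, 34 and 0 in the limma fits (13 to 2564). The causes were not tested.

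With the replicate number as a block, set 1 minus set 2 gave 832 calls and set 1 minus the controls for sgUFL1 0. In the other 4 comparisons the block gave 4906, 1868, 978 and 5671 calls for sgUFM1 minus set 2, minus the controls and minus set 1, and for set 2 minus the controls. The titles state no pairing of the libraries, only a number. Over all 18 same-numbered pairs the correlation of deviations ran from -0.445 to 0.628, with 8 above 0.1, and 6 of 12 libraries matched their own number best. Low counts limit CCDC144NL-AS1 in set 2, which rests on 2 to 7 counts per library.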
